A study of Ipomoea batatas with 12 samples.

Results

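The 226 genes described here were lower in sweet potato leaves treated with the peptide IbPep1 than in leaves treated with water, and stood near the water level in leaves treated with a second peptide, IbHypSysIV. They were picked by their measured levels from 32301 gene identifiers, of which 20558 had a mean of at least 1 CPM (counts scaled to a common library total) in water and are called expressed below. Levels were compared as log2(CPM + 0.5), and a difference between group means on this scale is called a difference throughout. A gene was a member when its IbPep1 mean was at least 0.8 below its water mean, its IbHypSysIV mean lay within 0.5 of water, and all 4 IbPep1 libraries were below all 4 water and all 4 IbHypSysIV libraries. Because the choice used all 3 contrasts, the falls themselves are given as a description, and counts of members that passed a test on these contrasts support nothing.

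The plants were Ipomoea batatas Lam., cultivar Tainong 57, grown from scions, and messenger RNA of the third leaf was sequenced after 1 h of treatment. By source name there were 4 libraries for water, 4 for IbHypSysIV and 4 for IbPep1. The source names give no other agent, and the labels give no other genotype. Total counts ran from 16607188 (IbHypSysIV replicate 4) to 25073251 (IbHypSysIV replicate 3). The source names of all 4 IbPep1 libraries read IbPep1, while a separate treatment field runs from IbPep1 to IbPep4 across them and the titles carry an unexplained code P2, and they were kept as IbPep1. The labels do not say that replicates were separate plants. Whole leaves hold several cell types, and fewer cells of a type cannot be told apart from less RNA per cell.

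IbPep1 bears the name of the plant elicitor peptides, short peptides cut from precursor proteins and sensed in Arabidopsis by receptor kinases of the cell surface with leucine-rich repeats. IbHypSysIV is named after the hydroxyproline-rich systemins (HypSys), a separate family of wound-related signalling peptides known from tobacco, tomato and sweet potato. In Arabidopsis, sensing of such danger signals is followed within minutes to hours by calcium influx, reactive oxygen, kinase activation and broad changes in transcription, in which many genes fall as well as rise. The deposited table pairs no identifier with a gene name, and 0 of the 226 members matched the reference gene table, so no function is given to any member and the leaf label could not be checked against marker genes. No member's copies in the genome are known, and reads of near-identical or overlapping genes may be shared among identifiers.

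The rule narrowed the expressed genes stepwise. A mean fall of at least 0.8 with IbPep1 was met by 882 genes, and 508 of these had an IbHypSysIV mean within 0.5 of water. All 4 IbPep1 libraries were below the other 8 in 226 of the 508, and in 897 (4.36%) of all 20558 expressed genes. Of the 499 expressed genes with a fall of at least 0.8 and no overlap between IbPep1 and water, 299 had an IbHypSysIV mean within 0.5 of water, 164 had one lower by more than 0.5 and 36 had one higher by more than 0.5. The members are therefore the non-overlapping part of the first of these 3 classes.

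**Figure D1:**
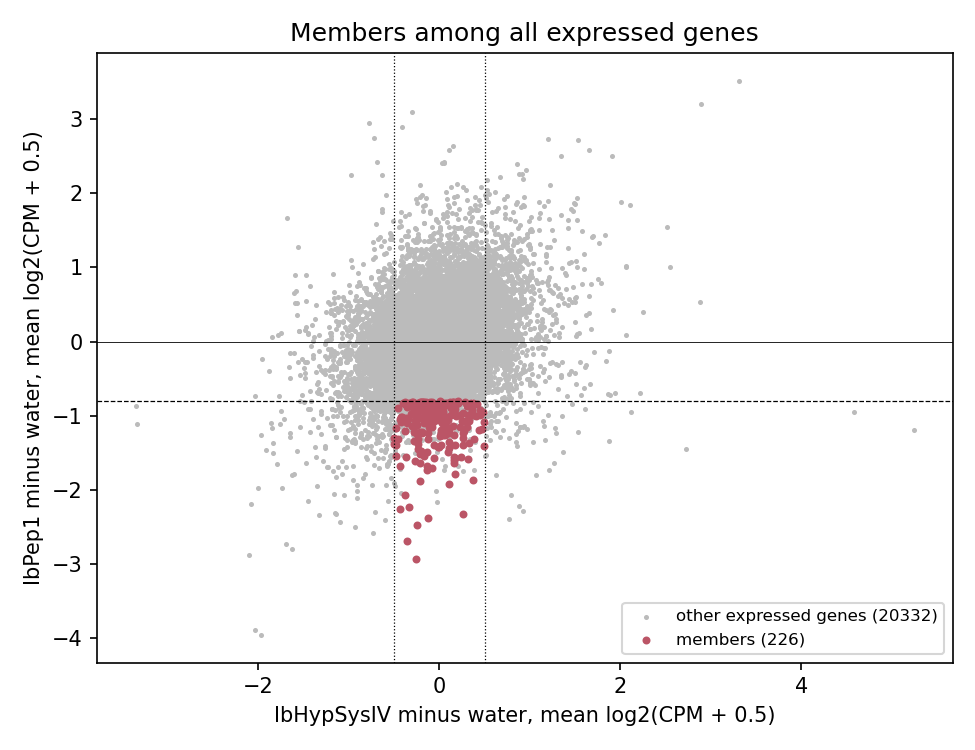
Each point is an expressed gene, with the IbHypSysIV difference from water on the horizontal axis and the IbPep1 difference from water on the vertical axis, both in log2(CPM + 0.5). Red points are the 226 members, dotted lines mark 0.5 either side of water, and the dashed line marks a fall of 0.8; grey points inside the same window overlapped in at least 1 library.

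The limits cut through a continuous spread. The smallest falls among members were -0.802, -0.802 and -0.808, and the nearest genes that met everything else stood at -0.797, -0.794 and -0.791. On the IbHypSysIV side, members reached 0.499 from water and the nearest genes left out stood at 0.503. A further 596 expressed genes met every condition except the fall of 0.8, and 56 met every condition except the IbHypSysIV margin. Of those 56, 36 were above water with IbHypSysIV and 20 below.

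The falls were moderate for most members. The median difference between IbPep1 and water was -1.02, a 2.03-fold fall, with quartiles of -1.25 and -0.88. At least a 2-fold fall was seen in 122 members and at least a 4-fold fall in 8. Over all expressed genes the median difference was -0.0038. Against IbHypSysIV the members' median was -1.01, and it ranged from -2.68 to -0.43.

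The largest fall was that of itf10g03980. It stood at 11.7, 22.7, 4.30 and 19.5 CPM in water replicates 1 to 4, at 11.9, 18.4, 8.93 and 5.54 CPM with IbHypSysIV, and at 1.01, 1.16, 2.59 and 0.522 CPM with IbPep1. The IbPep1 libraries held 21, 23, 60 and 11 counts of it, all above the floor of 3 counts used here. Every IbPep1 library lay below the lowest water library, replicate 3, and below the lowest IbHypSysIV library, replicate 4. Its difference was -2.93, a 7.65-fold fall, with standard deviations (SD) of 1.02 in water and 0.66 in IbPep1 (n = 4 each).

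The second largest fall was that of itf06g05320, a more abundant gene. Its water libraries held 104, 119, 25.4 and 114 CPM, its IbHypSysIV libraries 90.0, 91.2, 37.6 and 43.5 CPM, and its IbPep1 libraries 9.35, 14.3, 19.7 and 6.83 CPM. Water replicate 3 stood far below the other 3 water libraries and near IbPep1 replicate 3, the highest of its group, and IbHypSysIV replicates 3 and 4 lay between. The difference was -2.69, a 6.43-fold fall (SD 1.06 in water and 0.64 in IbPep1, n = 4 each).

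Measured from IbHypSysIV, the largest falls beyond those of these genes were those of itf06g09860 and itf15g04050. The level of itf06g09860 was 15.9, 37.0, 7.91 and 34.8 CPM in water, 31.4, 25.4, 25.4 and 17.2 CPM with IbHypSysIV, and 3.37, 3.17, 3.33 and 4.94 CPM with IbPep1. Its IbPep1 libraries had an SD of 0.26 on the log2 scale (n = 4), with replicate 4 above the other 3, its IbHypSysIV mean was 0.26 above water, and its difference between the peptides was -2.58. The level of itf15g04050 was 11.3, 19.8, 5.17 and 15.9 CPM in water, 7.29, 10.3, 6.58 and 25.7 CPM with IbHypSysIV, and 1.45, 2.01, 3.02 and 1.23 CPM with IbPep1. Here the IbHypSysIV libraries spread beyond the water range, with replicate 4 the highest of all 12, and the difference between the peptides was -2.26. Water replicate 3 was the lowest water library for all 4 of these genes.

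**Figure D2:**
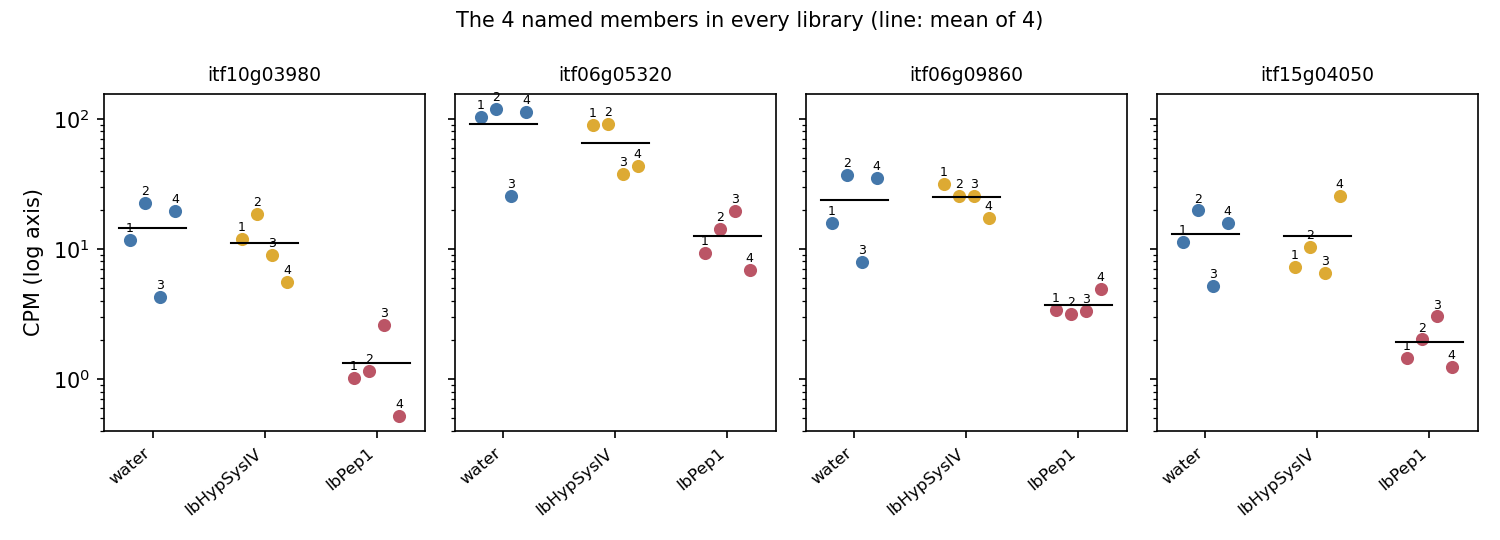
CPM on a log axis of the 4 named members in the 12 libraries, with replicate numbers beside the points and a line at each group mean. In all 4 genes the IbPep1 points lie below every other point, and the lowest water point is replicate 3.

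The members lay at low to high levels, with none in the uppermost part of the range. Their median mean level in water was 18.4 CPM, against 16.6 CPM over all expressed genes, with quartiles of 6.97 and 43.9 CPM and a highest value of 2602 CPM, where expressed genes reached 31966 CPM. With IbHypSysIV the median was 19.4 CPM, and with IbPep1 it was 8.37 CPM. Members made up 0.957% of expressed genes at 1 to 10 CPM in water, 1.20% of those at 10 to 100 CPM and 1.08% of those at 100 CPM or more, so their frequency varied little with level. The median fall in these bands was -1.01, -1.03 and -0.98. The rule sets a minimum on this same fall, which largely fixes these medians, so nothing is read from their likeness. In the IbPep1 libraries 16 members had fewer than 10 counts in at least 1 library, 2 had fewer than 3 and 0 were at 0.

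The members' summed share of the counts fell from water to IbPep1. They took 1.29%, 1.33%, 0.906% and 1.43% of the counts in water replicates 1 to 4, 1.17%, 1.18%, 1.01% and 1.01% with IbHypSysIV, and 0.4996%, 0.4998%, 0.508% and 0.544% with IbPep1. The means were 1.24% ± 0.231, 1.09% ± 0.0943 and 0.513% ± 0.0212 (SD, n = 4 each), and 1.35% ± 0.0734 in water without replicate 3 (SD, n = 3). The IbPep1 libraries lay below the other 8, as the choice of members requires. They also lay close together, on which the rule sets no limit. Water replicate 3 was below all 4 IbHypSysIV libraries.

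**Figure D3:**
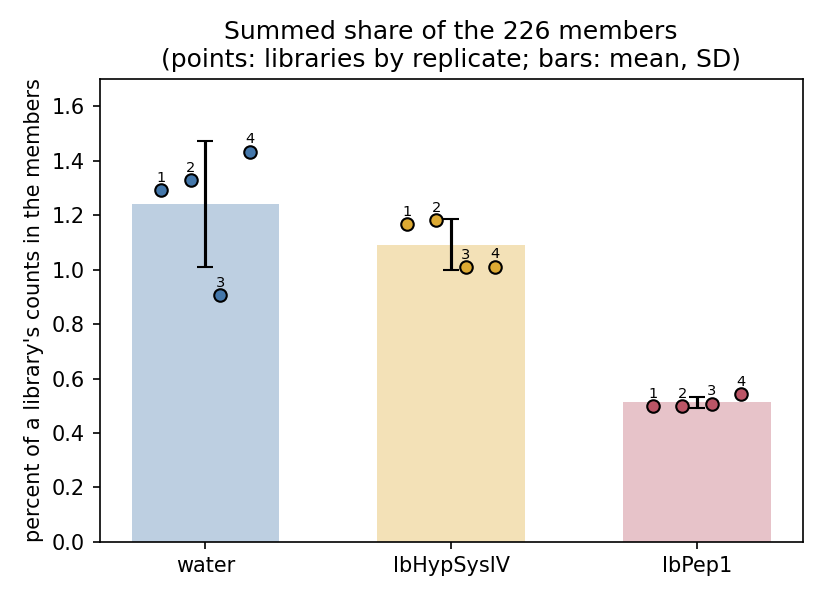
Percent of each library's counts that fell on the 226 members, by group, with points numbered by replicate, bars at the mean and error bars of 1 SD (n = 4). The IbPep1 libraries sit at 0.4996% to 0.544%, and water replicate 3 at 0.906% lies below the IbHypSysIV libraries.

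A pair of members carried 32.7% of the group's water CPM. The most abundant was 2602 ± 691 CPM in water, 1853 ± 284 CPM with IbHypSysIV and 1019 ± 65.3 CPM with IbPep1 (SD, n = 4 each), a difference of -1.31. The second was 1454 ± 695, 963 ± 321 and 266 ± 55.1 CPM in the same order, a difference of -2.25 and the sixth largest fall. Their IbHypSysIV differences from water were -0.46 and -0.43, close to the limit of 0.5. Without this pair the summed shares were 0.835% ± 0.101 in water, 0.811% ± 0.0490 with IbHypSysIV and 0.384% ± 0.0192 with IbPep1 (SD, n = 4 each), so most of the gap between water and IbHypSysIV in the full sum came from these genes.

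The third most abundant member shows how narrow the separation could be. It stood at 362 CPM in water replicate 3 and at 362 CPM in IbPep1 replicate 3, and the 2 libraries differed by 7.12e-05 on the log2 scale, the smallest gap of any member. The gap between the highest IbPep1 library and the lowest of the other 8 had a median of 0.24 over the members. It was under 0.1 in 56 members, at least 0.5 in 44 and at least 1 in 1.

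A library lay away from its group both in water (replicate 3) and in IbPep1 (replicate 3, whose title carries the number 4). Over expressed genes, for water replicate 3, the median absolute difference from another water library was 0.34 to 0.41 on the log2 scale, against 0.17 to 0.21 among the other 3. For IbPep1 replicate 3 the same values were 0.32 to 0.36 and 0.17 to 0.21. Pairs of IbHypSysIV libraries differed by 0.23 to 0.39, so that group was spread as a whole. Across expressed genes, which are not independent replicates, deviations from the group mean correlated at 0.431 between water replicate 3 and IbHypSysIV replicate 4. They correlated at 0.270 between water replicate 3 and IbPep1 replicate 3, and at 0.525 between IbHypSysIV replicate 4 and IbPep1 replicate 3. Other pairs of libraries reached like values, such as 0.498 between IbHypSysIV replicate 3 and IbPep1 replicate 1, 0.387 between water replicate 1 and IbHypSysIV replicate 2, and -0.562 between IbHypSysIV replicate 3 and IbPep1 replicate 3. Water replicate 3 was the lowest water library in 163 of 226 members (72.1%), against 31.7% of expressed genes, and the lowest of all 8 water and IbHypSysIV libraries in 103 (45.6%), against 17.5% of expressed genes. Its median difference from the mean of the other 3 water libraries was -0.46 over the members and 0.10 over expressed genes. In the 314 genes raised by IbPep1 alone under the same rule with its direction reversed, that median was 0.71. In the 46 genes lowered by both peptides it was -0.067. Water replicate 3 thus stood toward IbPep1 in the raised genes as well, and this is not particular to the members. With each member's levels placed between its IbPep1 mean (0) and its water mean (1), water replicates 1 to 4 lay at medians of 0.976, 1.12, 0.656 and 1.18. The IbHypSysIV libraries lay at 0.981, 1.08, 0.897 and 0.838 and the IbPep1 libraries at 0.0350, -0.0701, -0.0176 and 0.0613. Without water replicate 3 the rule found 416 genes, which held 185 (81.9%) of the members, and without IbPep1 replicate 3 it found 332, which held 200 (88.5%).

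**Figure D4:**
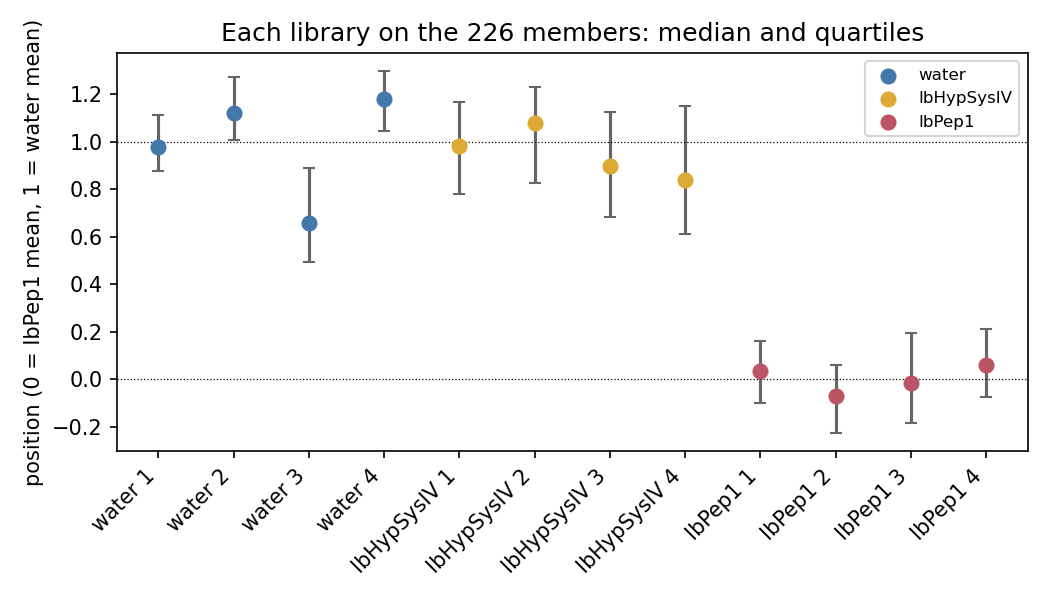
Median over the 226 members (points) and quartiles (bars) of each library's position between the member's IbPep1 mean at 0 and its water mean at 1. Water replicate 3 at 0.656 lies below the other water libraries and all IbHypSysIV libraries, whose medians run from 0.838 to 1.08.

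Members differed in how far water replicate 3 departed. In 85 it lay nearer to the IbPep1 mean than to the mean of the other 3 water libraries, in 34 it lay within the range of those 3, and in 29 above it. For the 85, with that library left out, the median fall with IbPep1 was -1.28 and the median IbHypSysIV difference from water was -0.33. For the other 141 these medians were -1.01 and -0.084. The rule used water replicate 3, and a member low in that library needs a larger fall from the other 3 to reach the limit, so this contrast largely follows from the choice. In the 85, IbHypSysIV replicates 1 to 4 lay at 0.799, 0.923, 0.737 and 0.604 of the way from IbPep1 (0) to the 3 other water libraries (1), and in the 141 at 0.961, 1.01, 0.888 and 0.897. The 85 stood lower than the 141 in each IbHypSysIV library, most of all in replicate 4, the smallest library of the series, and the part of its depth in this was not tested. The rule holds the IbHypSysIV mean to a water mean that includes replicate 3, so nothing is read from this either.

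The IbHypSysIV level of the members scattered around water. Its mean was above the water mean in 93 members and below it in 133, with a median difference of -0.063, against -0.026 over expressed genes. In 220 members the IbHypSysIV and water libraries overlapped, and over expressed genes the share was 88.1%. The rule bounds this difference, so nothing is read from the count. All 4 IbHypSysIV libraries were below all water libraries in 3 members (6.81% of expressed genes) and above them in 3 (5.08% of expressed genes). All 4 lay inside the water range in 70, a count with no share over expressed genes beside it. The rule holds the IbHypSysIV mean near the water mean, so nothing is read from this count either. Without water replicate 3 the median difference between IbHypSysIV and water became -0.17, and it ranged from -0.95 to 0.61. Nearness to water therefore depended in part on that library, which draws the water mean down.

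All 226 members were among the 23193 genes tested by quasi-likelihood in edgeR, with p-values adjusted by Benjamini and Hochberg's method. For IbPep1 against water 222 were lower at an adjusted p under 0.05, where 6.01% of all genes tested were called lower. For IbPep1 against IbHypSysIV 202 were lower, where 9.14% of all genes were. For IbHypSysIV against water 0 were called, where 2.31% of all genes were. In edgeR 8 members had an unadjusted p under 0.05, a count with no share over all genes beside it. DESeq2 called 2 members for this contrast, where it called 5.54% of all genes. The rule used these same contrasts, so nothing is read from the counts. A p that misses the threshold does not show that IbHypSysIV left a member unchanged. The first count was 119 without water replicate 2, 120 without water replicate 4 and 146 without IbPep1 replicate 2, where 1.26%, 1.27% and 1.62% of all genes were called lower.

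To read the fall in libraries that had no part in the choice, 1 library of each group was set aside in all 64 combinations, the rule was applied to the other 9, and the chosen genes were read in the libraries set aside. Between 191 and 707 genes were chosen. In the set-aside pair of IbPep1 and water libraries, the IbPep1 library was lower for a median of 95.7% of the chosen genes (54.3% to 99.1% over the 64), against 51.1% of expressed genes. The median difference was -0.87 (-1.33 to -0.046), against -0.015 over expressed genes (-0.10 to 0.16). In the 9 libraries used for the choice the corresponding median was -1.01.

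These values divided by which water library was set aside. With water replicate 1, 2 or 4 set aside the IbPep1 library was lower in a median of 96.8% of the chosen genes, with a median difference of -0.95 (-1.33 to -0.60). With water replicate 3 set aside, 428 to 707 genes were chosen, the IbPep1 library was lower in 65.1% of them, against 58.2% of expressed genes, and the median difference was -0.20 (-0.33 to -0.046), against -0.087 over expressed genes (-0.10 to 0.056). Against the set-aside IbHypSysIV library, the IbPep1 library was lower in a median of 91.7% of the chosen genes (70.6% to 98.7%), against 47.1% of expressed genes. The median difference was -0.80 (-1.22 to -0.37), against 0.038 over expressed genes (-0.085 to 0.23). By IbPep1 library the median difference from water was -0.90, -1.15, -0.67 and -0.86 with replicates 1 to 4 set aside, the smallest fall being in replicate 3. The combinations share libraries and many of the chosen genes, so tallies over them are not counts of independent repeats. Set against expressed genes in the same libraries, the chosen genes had the lower median in all 48 combinations with water replicate 1, 2 or 4 set aside and in 15 of the 16 with replicate 3. In the exception, with IbHypSysIV replicate 4 and IbPep1 replicate 1 also set aside, the medians were -0.046 for the chosen genes and -0.080 for expressed genes, and the IbPep1 library was lower in 54.3% and 57.6% of them. With IbPep1 replicate 4 in its place these shares were 57.4% and 59.7%. The IbHypSysIV level was read in the same way. The set-aside IbHypSysIV library differed from the set-aside water library by a median of -0.18 (-0.45 to 0.19) with water replicate 1, 2 or 4 set aside. With water replicate 3 set aside it stood 0.52 higher (0.33 to 0.72), beyond the margin of 0.5 at the median. Over expressed genes the corresponding medians were 0.0025 with water replicate 1, 2 or 4 set aside and -0.064 with water replicate 3.

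**Figure D5:**
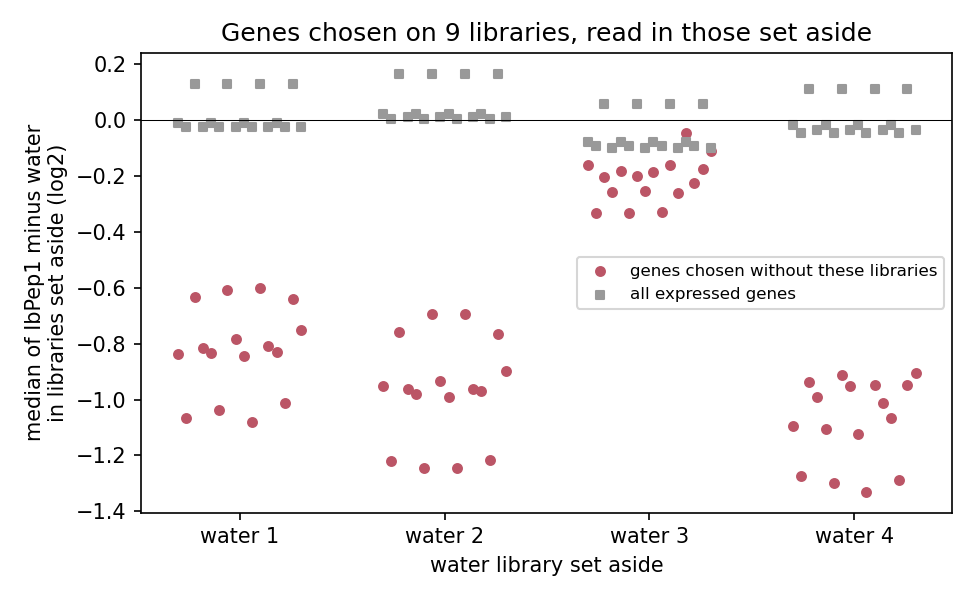
Median difference between the set-aside IbPep1 and water libraries for genes chosen on the other 9 libraries (red) and for all expressed genes (grey), with 16 combinations for each water library. With water replicate 1, 2 or 4 set aside the red points lie between -1.33 and -0.60, and with replicate 3 between -0.33 and -0.046.

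The spread of the members within a group was set beside that of expressed genes. The rule forbids overlap of IbPep1 with the other libraries, which bears on the spread in every group, so nothing is read from these values. Their median SD on the log2 scale was 0.25 in IbPep1, against 0.24 over expressed genes, and 0.29 with IbHypSysIV, against 0.28. In water it was 0.32, against 0.26 over expressed genes, and 0.18 against 0.16 without replicate 3. IbPep1 replicate 2 was the lowest of its group in 37.6% of members, against 24.3% of expressed genes. Replicates 4 and 3 were the highest in 69 and 68 members (30.5% and 30.1%), against 20.1% and 48.8% of expressed genes.

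The members were spread over all 16 identifier prefixes, which the labels do not explain. Prefixes itf09, itf02, itf05 and itf03 held 1.54, 1.46, 1.45 and 1.35 members per 100 expressed genes, and itf11 and itf00 held 0.632 and 0.638. In 33 members (14.6%) another member lay within 5 steps of the identifier numbering, and in 16 (7.08%) it was a single step away. These formed 15 pairs and 1 group of 3. No such share was computed for expressed genes or for random groups of the same size, so nothing is read from it. The deepest pair joined the third and ninth largest falls, with levels that went from 35.8 to 6.09 CPM and from 89.3 to 24.2 CPM between water and IbPep1. Genes next to each other may be related copies that share reads, which these data do not show.

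The mirrored rule, which asks for genes raised by IbPep1 alone, found 314 genes, and genes at least 0.8 below water with both peptides and with no overlap numbered 46. The median IbPep1 differences were -1.02, 1.05 and -1.06, and since all 3 groups were cut at 0.8 on this same difference, nothing is read from their likeness. The water level was 18.4 CPM in the members, 10.8 CPM under the mirrored rule and 18.8 CPM in the genes lowered by both. No member of the mirrored group exceeded 263 CPM in water, whereas the members reached 2602 CPM. Of the 314 genes, 18.5% had another within 5 such steps, and 0 of the 46 did. Such a share rises with the size of a group, so the groups are not compared on it. These differences between groups were not tested.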

How the data were processed

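Messenger RNA of 12 leaf libraries was analysed from the deposited table of raw counts per gene, whole numbers in 1 column per library. The submitters' processing notes name HISAT2 2.0.5, DESeq2 1.22.2 and HTSeq 0.6.1 with no role. Build and annotation: not given in the sources used here. Per the labels' protocols, RNA was extracted with TRIzol, and both a NEBNext Ultra and a SMARTER kit are named. Nothing states whether counting kept strand. Libraries were grouped by source name, and replicates were numbered in accession order.

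CPM was computed from each library's total count (16607188 to 25073251), so that 3 counts correspond to 0.120 to 0.181 CPM. This floor covers counting error only. The members and lists were chosen with earlier results of these data known. The rule was applied as stated in the text. Pathway lists written as patterns on gene descriptions could not be used, since 0 of 32301 identifiers matched the reference table. The named members are the 2 with the largest fall from water and the next 2 with the largest fall from IbHypSysIV, and others are given by rank. All 3 groups were fitted together in edgeR 4.0.16 (R 4.3.3), with filterByExpr (23193 genes kept), TMM scaling and group as the only term. DESeq2 1.42.0 was an alternative. The rule and the fit were also run on simulated counts in which no library stood apart from its group. That run therefore does not bear on a library such as water replicate 3. P-values set a difference between groups against the spread between libraries within groups, which may be technical.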

Additional observations from a re-analysis of the deposited data

Results flagged for a closer look

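Among 18 groups of 4 values examined (the members' summed share, their median position and the CPM of the 4 named members, in each treatment), 2 held a value far from the other 3 by the gap of the extreme value, a limit that about 1 in 20 groups passes for independent normal values. The level of itf06g05320 in water replicate 3 was 25.4 CPM, far below the other water libraries. The level of itf06g09860 in IbPep1 replicate 4 was 4.94 CPM, above the other IbPep1 libraries.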

How the results depend on the processing

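The rule found 184 to 416 genes when 1 library was left out, with 416 without water replicate 3, which held 185 of the 226 members. It found 122 genes with a fall of at least 1, and their median difference was -1.23, both set by the stricter limit. The other 7 settings gave 172 to 239 genes. With 1 library left out, the median fall of the genes then chosen was -1.04 to -0.99, and with those 7 settings it was -1.07 to -1.01, which the limit of 0.8 largely fixes. With the members as chosen, calls ranged from 119 to 224 for IbPep1 against water, from 150 to 218 for IbPep1 against IbHypSysIV and from 0 to 2 for IbHypSysIV against water (2 without water replicate 3) when 1 library was left out, while 1.26% to 13.0%, 4.27% to 12.02% and 0.145% to 4.14% of all genes were called. DESeq2 called 2 members for IbHypSysIV against water, where it called 5.54% of all genes. In the libraries set aside, the median difference was -0.20 with water replicate 3 set aside, a division chosen after seeing the data. The causes were not tested. The direction of the 4 named members is fixed by the choice of non-overlapping libraries.

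The title numbers are shared by 3 pairs of water and IbPep1 libraries, whose deviations correlated at 0.161, -0.0274 and -0.0588 across genes. Water replicate 1 correlated more with IbPep1 replicate 2 (0.269), which has another number. Pairs of IbHypSysIV libraries with the same number correlated at -0.110 and 0.114 with water and at -0.0710 and -0.0741 with IbPep1. Correlations over so few pairs cannot decide whether libraries with a shared number belong together. A replicate block on these numbers leaves 3 residual degrees of freedom in place of 9. The numbers of water replicate 3, IbHypSysIV replicates 3 and 4 and IbPep1 replicate 4 occur in no other library. Each is then fitted exactly and adds nothing to the contrasts, so the blocked counts also reflect the loss of these libraries. With the block, 208 members were called lower for IbPep1 against water (6.73% of all genes). Against IbHypSysIV 101 were called lower (1.65% of all genes), where the fit without the block called 202 members. For IbHypSysIV against water 0 members were called, where 0 of all genes were called.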
